A study of Mus musculus with 10 samples.

Results

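The autophagy and lysosome genes described here were 43 mouse genes listed by function, and all 43 were found among the 55359 rows of the deposited table by Ensembl identifier. They fall into 9 roles, from the transcription factors TFEB, TFE3 and MITF through autophagosome assembly and cargo receptors to lysosomal membrane proteins, acid hydrolases and the proton pump. All 43 passed the filter on low values, which left 24560 genes for testing.

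RNA was sequenced from orthotopic tumors of KPC K8484, a murine pancreatic cancer line, which had been injected at 10 weeks of age into the pancreas of immunocompetent C57BL/6 mice, written C57BL/6 J in the study. Mice of the CTRL group (n = 5) drank regular water and were normoglycemic. Mice of the D30 group (n = 5) drank 30% dextrose in water for 14 days, and the comparison asked which transcripts differ in tumors under forced hyperglycemia. Both groups carried the same 1 cell line and no chemotherapy is named in the labels of these samples, although their titles use the term PDX. No tumor could be tied to a single labelled animal, so tumors are named after their columns as N1, N2, N4, N5 and N6 (CTRL) and T1, T2, T4, T5 and T7 (D30), and all values below are listed in that order. Each tumor had between 29192261 and 42122304 reads on genes, and values are normalized counts, that is, reads divided by 1 size factor per tumor.

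Autophagy encloses cytoplasm in a double membrane that fuses with the lysosome, where acid hydrolases degrade the contents and return amino acids, lipids and sugars to the cell. The kinase complex mTORC1, which is active on the lysosomal surface when nutrients are plentiful, restrains both the ULK kinases that start autophagy and the MiT/TFE transcription factors that switch on lysosomal genes. Pancreatic ductal adenocarcinoma is known for high basal autophagy and for nuclear MiT/TFE factors that maintain lysosomal function.

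MiT/TFE factors bind the CLEAR element, whose core TCACGTGA contains the E-box CACGTG. Both motifs are palindromes, so a match on 1 strand is a match on the other. RefSeq promoter windows (GRCm38.p6, 250 bases before to 50 after a start) were held for 36 of the 43 genes and numbered 44. TCACGTGA was present in the windows of 7 of these 36 genes (19.4%), compared with 1.12% of all 27025 genes with a window, and CACGTG in 14 of 36 (38.9%) compared with 8.09%. By window, the shares were 15.9% against 0.974% for the longer motif and 31.8% against 7.15% for the shorter. The stretches that hold TCACGTGA are shown because this motif is the known link between the transcription factors and the lysosomal genes of the set. They read 5′ to 3′ on the strand of the gene, with the motif in capitals.
Ctsd, chr7:142387893-142387952, minus strand: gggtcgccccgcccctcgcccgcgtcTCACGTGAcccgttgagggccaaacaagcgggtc
Ctsa, chr2:164833734-164833792, plus strand: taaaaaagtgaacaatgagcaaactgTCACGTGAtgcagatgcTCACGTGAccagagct
Gla, chrX:134601167-134601255, minus strand: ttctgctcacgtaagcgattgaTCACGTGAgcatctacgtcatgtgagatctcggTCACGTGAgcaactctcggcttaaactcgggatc
Mcoln1, chr8:3500447-3500506, plus strand: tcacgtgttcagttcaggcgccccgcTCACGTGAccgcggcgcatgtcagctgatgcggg
Atp6v1a, chr16:44139358-44139417, minus strand: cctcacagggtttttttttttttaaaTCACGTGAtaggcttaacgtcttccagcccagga
Atp6v0d1, chr8:105566045-105566094, minus strand: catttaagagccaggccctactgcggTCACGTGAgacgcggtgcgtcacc
Atg3, chr16:45158731-45158790, plus strand: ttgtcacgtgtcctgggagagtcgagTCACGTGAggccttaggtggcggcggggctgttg
Ctsa and Gla each held the motif in 2 places. The first motif base lay 99 bases before the start in Ctsd, 46 in Mcoln1, 132 in Atp6v1a, 4 in Atp6v0d1 and 72 in Atg3. A match describes the letters only and is not a measured binding site. The windows of Map1lc3a, Becn1, Atg12, Atg16l1, Atp6v1h, Ctsb and Pik3c3 were not analysed here.

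One D30 tumor, T4, stood apart from the other D30 tumors. It was the highest of the 10 tumors in 15 of the 43 genes and the lowest in 13, and 19 genes (44.2%) differed by more than 1 log2 unit from the mean of the other D30 tumors. Of the 12215 genes whose mean reached 100 normalized counts, 42.3% did the same in T4. D30 tumor T5 was highest in 13 genes and lowest in 2, while each of the other 8 tumors held between 1 and 9 of the extreme values. T5 also had the fewest genes with a read, 20482, compared with 23446 to 25912 in the others. For the members described below, values without T4 are given beside those of all 10 tumors.

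The tumors also differed in the RNA of other cell types. Of 10 macrophage markers 1, Csf1r, was called (log2 fold change -1.06, adjusted p = 0.0449, limma) and 8 were lower in D30. Their summed level ran from 35236 to 68734 normalized counts in CTRL (median 40792) and from 18949 in T5 to 81329 in T4 in D30 (median 27036). Lyz2 alone held 46217 normalized counts of the T4 sum. None of the 10 was at 0 in all tumors. Neutrophil markers were highest in T5 (summed level 16383, compared with 669 to 3177 in CTRL tumors), and all 7 fibroblast markers were lower in D30 without a call, with summed levels between 76308 and 135218 in CTRL and between 26700.3 (T4) and 102388 in D30 tumors. Both endothelial and islet markers held calls. All 5 endothelial markers were lower in D30, with Cdh5 called (log2 fold change -1.45, adjusted p = 0.0117, limma) and summed levels of 10081.5 to 16799 in CTRL against 4115 (T4) to 8398 in D30 tumors. All 4 islet markers were lower, with Ins1 and Gcg called (adjusted p = 0.0355 and 0.017, limma). Their summed level ran from 5.31 to 1277 (N6) in CTRL (median 113) and from 0 to 15.04 (T4) in D30 (median 0). Sst was at 0 in every D30 tumor. Of 6 acinar markers 5 were lower without a call. Their summed level ran from 270 (N1) to 55097 (N6) in CTRL (median 2868) and from 144 (T5) to 5031 (T4) in D30 (median 727). For both, T4 thus lay above the lowest CTRL tumor. High acinar levels were confined to some CTRL tumors. Ctrb1 had 18014 normalized counts in N2 and 32456 in N6, compared with 26.3 to 1823 in the other CTRL tumors. All 6 T cell markers were lower without a call (median log2 fold change -1.04). Ductal keratins, which mark the tumor epithelium, were abundant in every tumor. Of 6 ductal markers 5 were higher in D30 without a call (median log2 fold change 0.62). All 6 had an unadjusted p under 0.05 (limma), where 17.3% of all genes did. The ductal markers summed to 209890–335472 normalized counts in CTRL and 341271–475520 in D30. Epcam went the other way (log2 fold change -3.17, adjusted p = 0.099, limma) and was low, with means of 85.1 in CTRL and 16.1 in D30 tumors. In bulk tumors, fewer cells of a type and less RNA per cell cannot be told apart, and the part of these cell types in the results below was not tested.

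**Figure D1:**
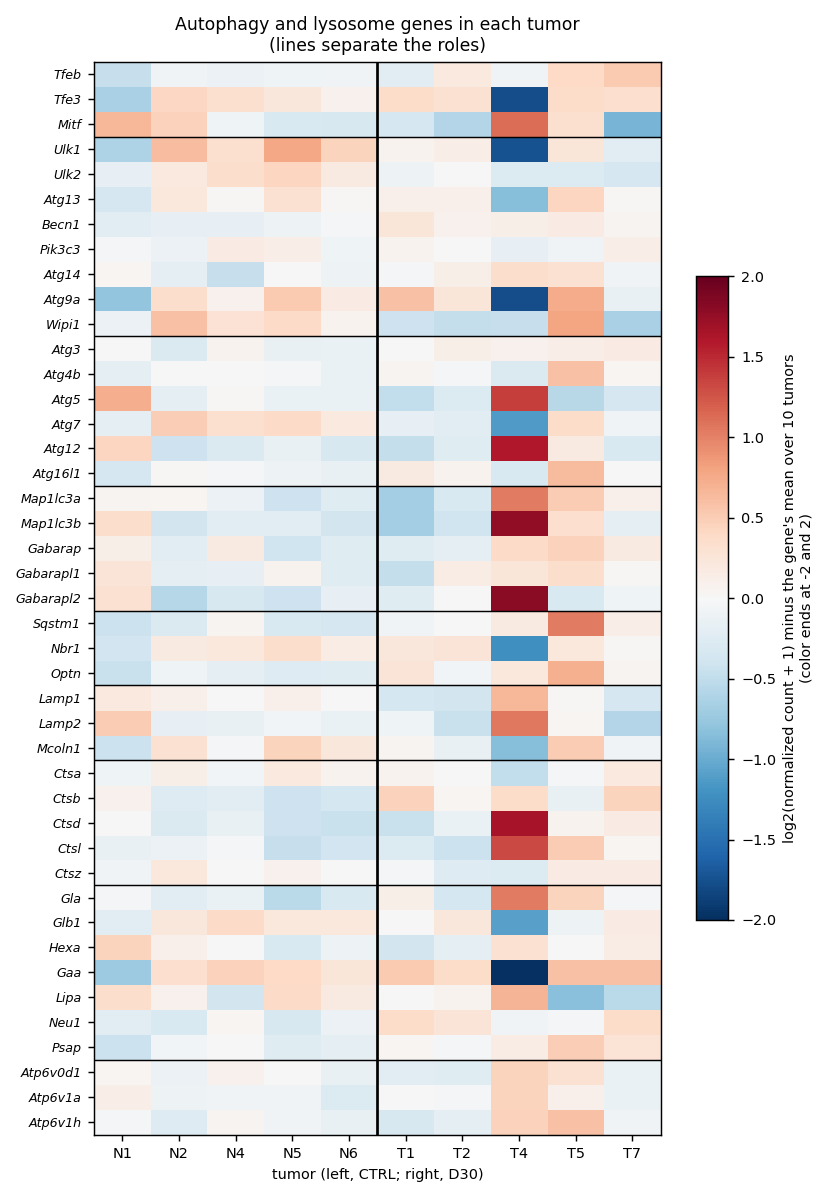
Heat map of the 43 genes (rows, grouped by role) in the 10 tumors (columns). Color gives log2(normalized count + 1) minus the mean of the gene over all tumors, from blue (lower) to red (higher). T4 carries most of the darkest cells in both colors, and T5 is the reddest cell in the rows of Sqstm1, Optn, Wipi1 and Atg16l1.

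No autophagy or lysosome gene of the set was called between D30 and CTRL tumors at an adjusted p under 0.05 (0 of 43, compared with 2.76% of all 24560 genes tested, limma). The set was centered close to no change, with a median log2 fold change of 0.11, 23 genes higher and 20 lower. The median over all tested genes was -0.06, with 45.3% of them higher. At an unadjusted p under 0.05, 5 of the 43 genes differed (11.6%, compared with 17.3% of all genes), namely Optn, Sqstm1, Ctsb and Neu1, which were higher in D30, and Ulk2, which was lower. The groups did not overlap for 2 genes, Optn and Becn1 (4.65%, compared with 6.19% of all genes). These counts are small and are no result about the set.

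The count tests on the recovered reads gave the same number. edgeR with TMM called 0 of 43 genes (3.96% of all genes called), with 6 (13.95%) at an unadjusted p under 0.05, where 19.9% of all genes were. DESeq2 called 0 (8.52% of all genes called), with 8 (18.6%) at an unadjusted p under 0.05, where 20.5% of all genes were. Without T4, 0 of 43 genes were called while 6.43% of all genes were, and 8 members (18.6%) had an unadjusted p under 0.05, compared with 22.5% of all genes. Without T5, Wipi1 was the 1 gene called (3.54% of all genes called), and without both tumors Wipi1 and Neu1 were called (2 of 43, compared with 9.97% of all genes). A correction for GC content and length left 0 of 43 called, with 4.42% of all genes called and 12 members (27.9%) at an unadjusted p under 0.05, compared with 20.3% of all genes. Scaling by library size moved the median of all genes to -0.27 and that of the set to -0.11, with 17 of 43 members higher, so that the set stayed above the median of all genes while its direction turned. Under that scaling the log2 fold changes were 0.25 for Optn, 0.30 for Sqstm1, 0.24 for Ctsb, 0.14 for Neu1 and -0.62 for Ulk2.

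**Figure D2:**
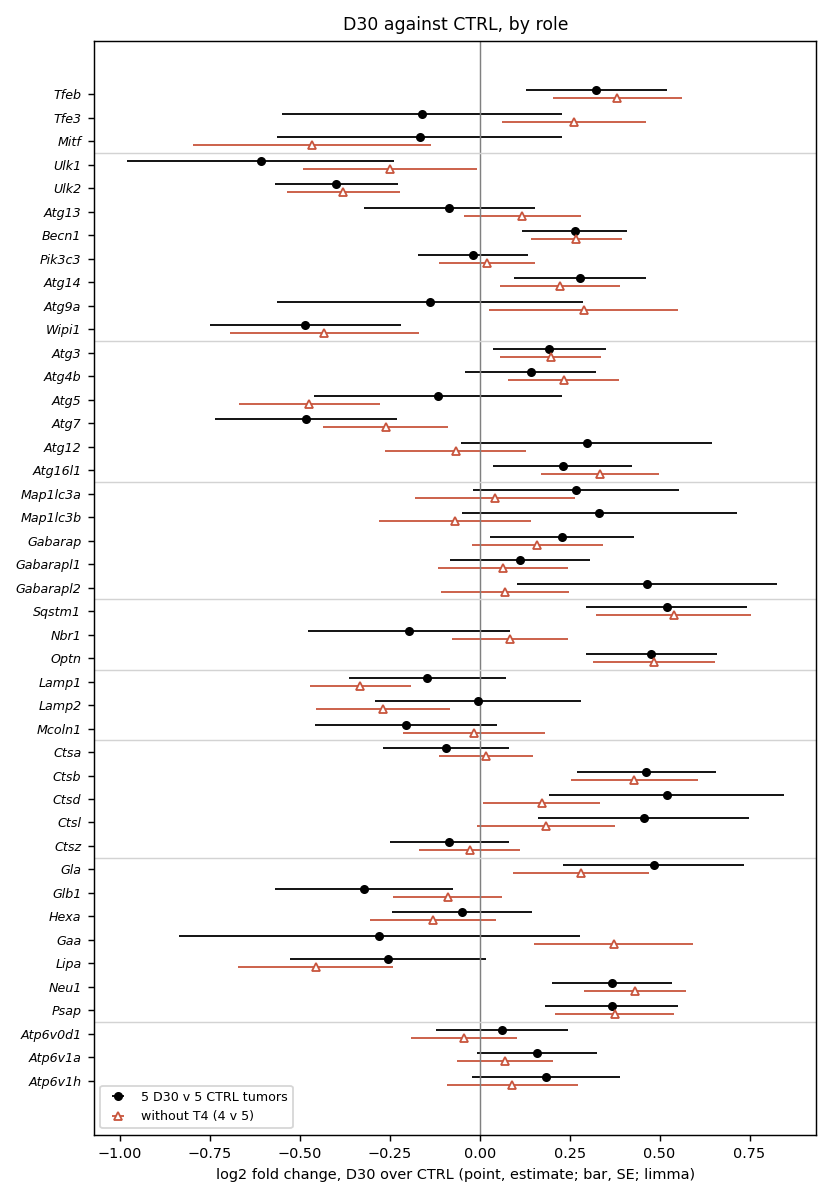
Log2 fold change of each of the 43 genes, D30 over CTRL, with its SE (horizontal axis, with genes on the vertical axis by role). Filled circles use all 10 tumors and open triangles leave out T4. None of the 43 was called in either fit, and Tfe3, Gaa and Atg9a lie below 0 with T4 and above 0 without it.

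Levels are compared between genes per kilobase of merged exons. On that scale, Psap, the precursor of the saposins that activate sphingolipid hydrolases, was the most abundant member (mean of the groups 11797 normalized counts per kb). It was followed by Lamp1 (7632), Ctsd (6738), Ctsz (6169), Ctsb (4453) and the ATG8 protein Gabarap (4025). In the CTRL group alone, Ctsz (6332 per kb) was above Ctsd (5081 per kb), and Ctsd was by far highest in the D30 tumor T4. At the other end stood Mitf (19.5), Atg9a (146) and Atg16l1 (148). The merged exons of Atg16l1 span 9628 bases, compared with 3130 in its longest coding transcript, so its low value depends in part on the length used. The 5 most abundant members were all lysosomal.

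The MiT/TFE transcription factors, which drive lysosomal and autophagy genes, showed no call. Tfeb had 623, 813, 795, 804 and 818 normalized counts in the CTRL tumors and 733, 978, 815, 1132 and 1230.3 in the D30 tumors. The D30 tumors T2, T5 and T7 lay above all CTRL tumors, T1 and T4 lay within their range, and N1 was the lowest. For Tfeb, the log2 fold change was 0.32 ± 0.20 (SE, limma, adjusted p = 0.428), and 0.38 ± 0.18 (SE, limma, adjusted p = 0.231) without T4.
Tfe3 had 980.5, 2057, 1919, 1802 and 1626 normalized counts in the CTRL tumors and 1988, 1893, 449.9, 1984 and 1930.2 in the D30 tumors. The groups overlapped almost entirely, apart from the low values of T4 and N1. For Tfe3, the log2 fold change was -0.16 ± 0.39 (SE, limma, adjusted p = 0.876), and the direction turned without T4, to 0.26 ± 0.20 (SE, limma, adjusted p = 0.47). Mitf, at a low level, had 176, 153, 104, 89.4 and 88.1 normalized counts in the CTRL tumors and 87.4, 73.3, 241, 139 and 57.5 in the D30 tumors, where T4 was the highest of all tumors and T7 the lowest. For Mitf, the log2 fold change was -0.17 ± 0.40 (SE, limma, adjusted p = 0.872), and -0.47 ± 0.33 (SE, limma, adjusted p = 0.432) without T4, while leaving out T7 gave 0.045 (adjusted p = 0.969, limma).

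Among the 8 genes of initiation and nucleation, 2 were higher and 6 lower, and none was called (median log2 fold change -0.11, or 0.07 without T4). Ulk1 and Ulk2 encode the kinases that start autophagosome formation. Ulk2 (chr11:61775649-61855073, GENCODE M21 on GRCm38, as for all gene positions here) had 1257, 1613, 1805, 1899 and 1591 normalized counts in the CTRL tumors and 1307, 1401, 1164, 1169 and 1115 in the D30 tumors. All D30 tumors except T1 and T2 were below the lowest CTRL tumor, N1, and T1 and T2 were below the other CTRL tumors. Ulk2 averaged 1633 ± 247 normalized counts in the CTRL group and 1231 ± 119 in the D30 group (SD, n = 5 each). For Ulk2, the log2 fold change was -0.40 ± 0.17 (SE, limma, adjusted p = 0.255). The value was -0.38 ± 0.16 (SE, limma, adjusted p = 0.174) without T4, and -0.18 (adjusted p = 0.543, limma) after the GC and length correction.
Ulk1 had 1605, 3765, 3064, 4206 and 3365 normalized counts in the CTRL tumors and 2589, 2691, 737, 2917 and 2118 in the D30 tumors. T4 was the lowest tumor, N1 the second lowest, and the other D30 tumors lay below N2, N4, N5 and N6. For Ulk1, the log2 fold change was -0.61 ± 0.37 (SE, limma, adjusted p = 0.433), the lowest of the 43 genes, and -0.25 ± 0.24 (SE, limma, adjusted p = 0.581) without T4.
Becn1 and Wipi1 were chosen for description after their values were seen, the first because its groups did not overlap and the second because it was called without T5. Becn1, which encodes the scaffold of the PI3-kinase complex that nucleates the membrane, had 1914, 1980.0, 1964, 2066 and 2164 normalized counts in the CTRL tumors and 2625, 2337, 2387, 2481 and 2285 in the D30 tumors. Every D30 tumor was above every CTRL tumor, by a small margin. For Becn1, the log2 fold change was 0.26 ± 0.15 (SE, limma, adjusted p = 0.379), and 0.27 without T4. It was 0.47 (adjusted p = 0.0512, limma) after the GC and length correction and 0.04 with library-size scaling. Part of Becn1 is overlapped by Cntd1 on the other strand, and whether reads were counted by strand is not given in the sources used here.
Wipi1, which encodes a lipid-binding protein of the growing membrane, had 1712, 2775, 2248, 2417 and 1941 normalized counts in the CTRL tumors and 1383, 1325, 1349.8, 3190.3 and 1181 in the D30 tumors. T1, T2, T4 and T7 lay below all CTRL tumors, and T5 lay above all of them. For Wipi1, the log2 fold change was -0.48 ± 0.27 (SE, limma, adjusted p = 0.378), and -0.74 ± 0.18 (SE, limma, adjusted p = 0.0455) without T5. Without T4 it was -0.43.
The remaining 4 genes were Atg13 (-0.09), Pik3c3 (-0.02), Atg14 (0.28) and Atg9a (-0.14, on the log2 scale), and Atg9a had 222 normalized counts in T4 compared with 689 to 1277 in the other D30 tumors. Without T4, the values were 0.12 for Atg13, 0.02 for Pik3c3, 0.22 for Atg14 and 0.29 for Atg9a, so that the direction turned for Atg13, Pik3c3 and Atg9a.

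The conjugation machinery attaches ATG8 proteins to the membrane. Of its 6 genes 4 were higher (2 of 6 with library-size scaling), with a median log2 fold change of 0.17, or 0.07 without T4, and no call. Atg7, which encodes the E1-like enzyme of both conjugation systems, had 2139.8, 3419.9, 3022, 3153 and 2765 normalized counts in the CTRL tumors and 2170.5, 2093, 1107, 3110.2 and 2304 in the D30 tumors. T5 and the low N1 made the groups overlap, and T1, T2, T4 and T7 were below N2, N4, N5 and N6. For Atg7, the log2 fold change was -0.48 ± 0.25 (SE, limma, adjusted p = 0.353), and -0.26 ± 0.17 (SE, limma, adjusted p = 0.401) without T4. Processed pseudogenes lie within the Atg7 locus on its strand.
Atg5 and Atg12, whose products are joined to each other, were both highest in T4. Atg5 had 3079 normalized counts there against 807 to 979 in the other D30 tumors, and its log2 fold change of -0.12 became -0.47 ± 0.20 (SE, limma, adjusted p = 0.171) without T4. Atg12 had 6686 in T4 against 1574 to 2487 in the others, and its log2 fold change of 0.30 became -0.07. The log2 fold changes of the others were 0.19 for the E2-like enzyme Atg3, 0.14 for the protease Atg4b and 0.23 for Atg16l1, and without T4 they were 0.20, 0.23 and 0.33.

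All 5 genes of the ATG8 family, whose products are linked to the autophagosome membrane, were higher in D30 without a call (median log2 fold change 0.27), and 4 of 5 were higher with library-size scaling and also without T4 (median 0.07). Gabarapl2 had 2962, 1628, 1918, 1812 and 2152 normalized counts in the CTRL tumors and 2023, 2394, 8437, 1938 and 2277 in the D30 tumors. T4 exceeded every other tumor by far, and the other D30 tumors lay inside the CTRL range. For Gabarapl2, the log2 fold change was 0.46 ± 0.36 (SE, limma, adjusted p = 0.55), and 0.07 without T4. Map1lc3b, the gene of LC3B, had 30922 in T4 against 5648 to 11402 in the other D30 tumors, and its log2 fold change of 0.33 became -0.07. Gm20388, another annotated protein-coding gene, overlaps Map1lc3b on the same strand, so the Map1lc3b count is uncertain where reads could be split. The log2 fold changes of Map1lc3a, Gabarap and Gabarapl1 were 0.27, 0.23 and 0.11, and without T4 they were 0.04, 0.16 and 0.07. The fold changes of Gabarapl2, Map1lc3b and Map1lc3a in the comparison of all 10 tumors therefore rested in large part on T4. Those of Gabarap and Gabarapl1 moved less without T4. Gabarap was highest in T5 (9970 normalized counts), and its log2 fold change was 0.02 without T4 and T5.

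The autophagy receptors bind ubiquitinated cargo and ATG8 proteins. Sqstm1 and Optn, 2 of the 3 measured, were higher in D30 at an unadjusted p under 0.05, and neither was called. Sqstm1 (chr11:50199366-50210827), the gene of p62, had 8237, 9048, 11563, 8948 and 8809 normalized counts in the CTRL tumors and 10504, 11156, 12580.4, 22847 and 12205 in the D30 tumors. All D30 tumors lay above the CTRL tumors other than N4, T1 and T2 lay below N4, and T5 was far above every other tumor. Sqstm1 averaged 9321 ± 1292 normalized counts in the CTRL group and 13858 ± 5092 in the D30 group (SD, n = 5 each). For Sqstm1, the log2 fold change was 0.52 ± 0.22 (SE, limma, adjusted p = 0.253) and was 0.54 ± 0.22 (SE, limma, adjusted p = 0.159) without T4. Without T5 it was 0.32 (adjusted p = 0.347, limma), and without both tumors 0.28 (adjusted p = 0.27, limma), and in each of these fits 1 of the 3 receptors had an unadjusted p under 0.05. Mrnip overlaps Sqstm1 on the other strand.
Optn (chr2:5020642-5064051), the gene of optineurin, a receptor for mitochondria and bacteria, had 1545, 2003, 1875, 1778 and 1798 normalized counts in the CTRL tumors and 2544, 2044, 2447, 3482 and 2189 in the D30 tumors. The groups did not overlap, although T2 exceeded N2 by little, and T5 was again the highest (two-sided exact permutation test, unadjusted p = 0.00794, the lowest p this design can give). Any gene without overlap reaches this p, as Becn1 did, and 6.19% of all genes had no overlap. The p therefore adds nothing to the lack of overlap. Optn averaged 1799.7 ± 167 normalized counts in the CTRL group and 2541 ± 563 in the D30 group (SD, n = 5 each). For Optn, the log2 fold change was 0.48 ± 0.18 (SE, limma, adjusted p = 0.195), the smallest adjusted p of the 43 genes, and 0.48 ± 0.17 (SE, limma, adjusted p = 0.11) without T4. An annotated antisense transcript overlaps Optn.
Nbr1, a receptor related to p62, had a log2 fold change of -0.20, which turned to 0.08 without T4 (1863 normalized counts there, compared with 4428 to 5212 in the other D30 tumors).

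All 3 lysosomal membrane genes were lower in D30, with no call (median log2 fold change -0.15, or -0.27 without T4), although 1 was higher in edgeR and DESeq2 and after the GC and length correction. Mcoln1, the gene of the lysosomal calcium channel TRPML1, had 1985, 3281, 2616, 3623 and 3112 normalized counts in the CTRL tumors and 2775, 2394, 1469, 3811 and 2534 in the D30 tumors. T5 was the highest and T4 the lowest tumor, and the groups overlapped across the whole range. For Mcoln1, the log2 fold change was -0.21 ± 0.25 (SE, limma, adjusted p = 0.729), and -0.02 without T4. Lamp1 and Lamp2, the main glycoproteins of the lysosomal membrane, were highest in T4 (31777 and 19849.7 normalized counts), with log2 fold changes of -0.15 and -0.0051. Without T4, the log2 fold change of Lamp1 was -0.33 ± 0.14 (SE, limma, adjusted p = 0.184), and that of Lamp2 was -0.27 ± 0.19 (SE, limma, adjusted p = 0.42).

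Of the 5 cathepsins, lysosomal proteases, 3 were higher and 2 lower, with a median log2 fold change of 0.46, or 0.17 without T4, and no call. Ctsb (chr14:63122462-63145923) had 27922, 22062, 22601, 19683 and 20589 normalized counts in the CTRL tumors and 36296, 27026, 33918, 23677 and 35699 in the D30 tumors. T1, T4 and T7 were above every CTRL tumor, while T2 and T5 were below N1 but above the other CTRL tumors. Ctsb averaged 22571 ± 3208 normalized counts in the CTRL group and 31323 ± 5647 in the D30 group (SD, n = 5 each). For Ctsb, the log2 fold change was 0.46 ± 0.19 (SE, limma, adjusted p = 0.24), and 0.43 ± 0.18 (SE, limma, adjusted p = 0.168) without T4. Fdft1 overlaps Ctsb on the other strand.
Ctsd, one of the genes with a CLEAR core shown above, had 14124, 11677, 12810.2, 10663 and 10451 normalized counts in the CTRL tumors and 10428, 12919, 44508, 14958 and 15875 in the D30 tumors. T4 was far above all others, T5 and T7 were slightly above N1, and T1 was the lowest tumor. For Ctsd, the log2 fold change was 0.52 ± 0.33 (SE, limma, adjusted p = 0.446), and 0.17 without T4. Ctsd shares its strand and position with another annotated protein-coding gene, Gm49369, so its count is uncertain where reads could be split.
Ctsl had 33726 normalized counts in T4 against 10030 to 19206 in the other D30 tumors, and its log2 fold change of 0.46 became 0.18. Ctsa (-0.09) and Ctsz (-0.09) differed little on the log2 scale, and without T4 the values were 0.02 and -0.03. T4, where Ctsd and Ctsl were highest, also had the highest summed macrophage markers, of which Lyz2 alone held 46217 normalized counts. Cd68, C1qb, C1qc, Itgam and Cd14 were also highest in T4, while Csf1r (693) was lowest there of all 10 tumors. Without T4, 4 of the 10 macrophage markers were called, all lower in D30, where 6.43% of all genes were called. The part of macrophages in the cathepsin values was not tested.

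The 7 genes of glycosidases, the acid lipase and the saposin precursor divided into 3 higher and 4 lower, with no call (median log2 fold change -0.05, or 0.28 without T4). Neu1 (chr17:34931253-34935953), the lysosomal sialidase, had 3229.7, 3003, 3804, 2967 and 3444 normalized counts in the CTRL tumors and 4809, 4472, 3544, 3678 and 4814 in the D30 tumors. T1, T2 and T7 lay above all CTRL tumors, and T4 and T5 lay below N4. Neu1 averaged 3289.7 ± 346 normalized counts in the CTRL group and 4263 ± 613 in the D30 group (SD, n = 5 each). For Neu1, the log2 fold change was 0.37 ± 0.17 (SE, limma, adjusted p = 0.276), and 0.43 ± 0.14 (SE, limma, adjusted p = 0.0904) without T4. Without both T4 and T5 it was 0.52 ± 0.14 (SE, limma, adjusted p = 0.0297).
Gla, the alpha-galactosidase, had 721, 639, 672, 506 and 598 normalized counts in the CTRL tumors and 798, 575, 1521, 999 and 718 in the D30 tumors. T4 and T5 were the highest, T1 was also above the CTRL tumors, and T2 and T7 lay within their range. For Gla, the log2 fold change was 0.48 ± 0.25 (SE, limma, adjusted p = 0.35), and 0.28 without T4. Psap had 30918 to 44822 normalized counts in D30 and 23628 to 32148 in CTRL tumors. Its log2 fold change was 0.37 both with T4 (adjusted p = 0.331, limma) and without it (adjusted p = 0.197, limma).
Gaa, the acid alpha-glucosidase that degrades glycogen in the lysosome, had 455 normalized counts in T4 compared with 3923 to 4595 in the other D30 tumors, the widest departure of any member. Its log2 fold change was -0.28 with T4 and 0.37 without it. Glb1 (-0.32), Hexa (-0.05) and Lipa (-0.25, on the log2 scale) were lower in D30 without a call. Without T4, the values were -0.09 for Glb1, -0.13 for Hexa and -0.46 for Lipa. The protein-coding gene Tmppe overlaps Glb1 on the same strand, so the Glb1 count is likewise uncertain.

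The 3 V-ATPase subunits, parts of the proton pump that acidifies the lysosome, were higher in D30 without a call (median log2 fold change 0.16, or 0.07 without T4), although 0 of 3 were higher with library-size scaling. Atp6v1h had 2105, 1799, 2227, 2060.0 and 1941 normalized counts in the CTRL tumors and 1717, 1888, 2975, 3236 and 2046 in the D30 tumors. T4 and T5 were above every CTRL tumor and T1 was below every one. For Atp6v1h, the log2 fold change was 0.18 ± 0.20 (SE, limma, adjusted p = 0.696), and scaling by library size turned the direction, to -0.040. It was 0.09 without T4 and -0.11 without T4 and T5. Atp6v1a (0.16) and Atp6v0d1 (0.06) moved less on the log2 scale, and without T4 their values were 0.07 and -0.04. Rgs20 overlaps Atp6v1h on the other strand.

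**Figure D3:**
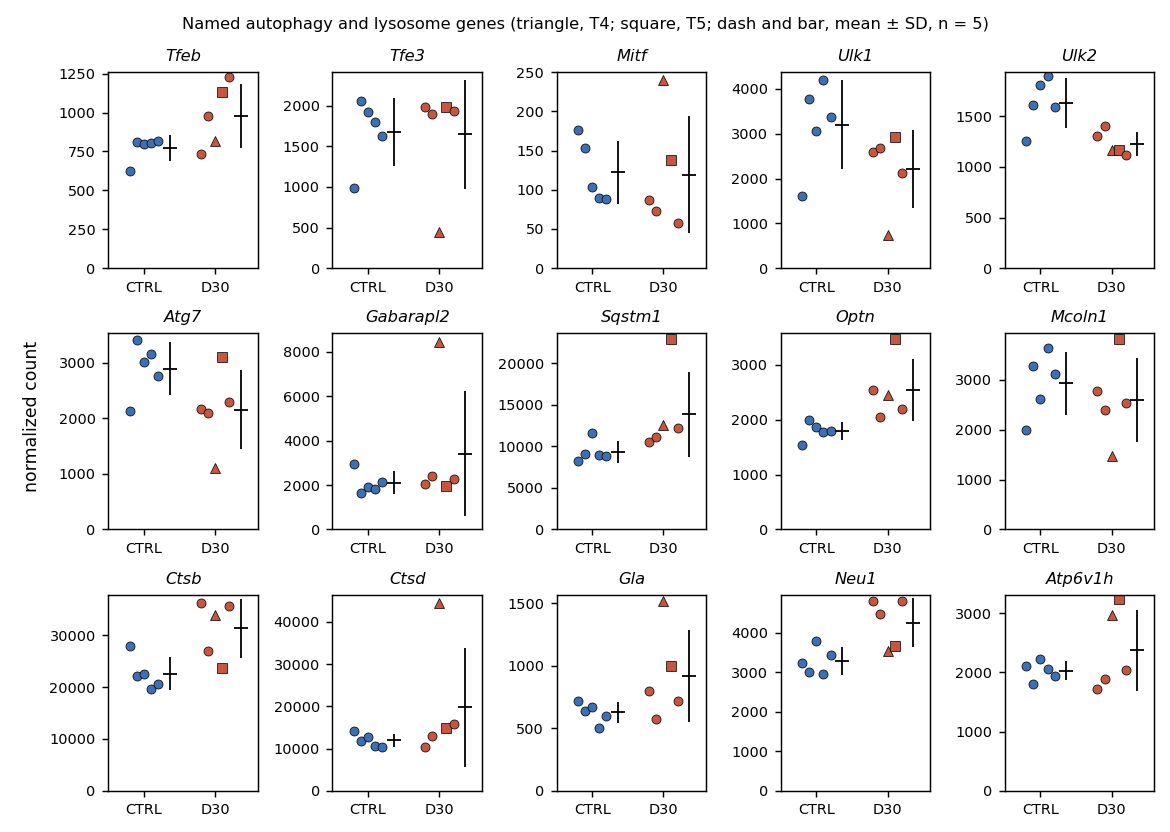
Normalized count (vertical axis, from 0) of 15 genes of the set in each CTRL (blue) and D30 (red) tumor, with the mean and SD of each group beside the points (n = 5). T4 is a triangle and T5 a square. Optn is the 1 panel without overlap between the groups, T4 is the extreme D30 point in Tfe3, Ulk1, Gabarapl2 and Ctsd, and T5 in Sqstm1.

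The departure of T4 varied with the base composition of the transcripts. Over the 43 genes, the difference between T4 and the mean of the other D30 tumors correlated with GC content of the longest coding transcript at Pearson's r = -0.48 and Spearman's rho = -0.53. This is a description across genes of 1 library, which share their depth and are not independent replicates. N1 behaved alike among CTRL tumors (r = -0.52), and the other 8 tumors had positive r, up to 0.64 in T7. Over the 12200 genes with a mean of 100 or more and a known GC content, Pearson's r was -0.44 in T4 and -0.45 in N1. Transcript length also went with the differences. Over the same genes, Pearson's r with log2 length was -0.35 in T4, -0.29 in N1, 0.41 in T1 and 0.37 in N5. In the other tumors it ran from -0.06 to 0.23. Several members with GC-rich transcripts were low in T4, such as Gaa (59.5% GC, log2 difference -3.26), Ulk1 (58.0%, -1.80) and Tfe3 (57.3%, -2.11). Several AT-rich members were high, such as Lamp2 (38.7% GC, 1.32), Gabarapl2 (45.3%, 1.97) and Atg12 (44.3%, 1.82). Map1lc3b (55.2% GC, 2.01) and Ctsd (55.9%, 1.73) were high at an upper GC content and departed from this relation. The members with the highest GC content also departed from it, with Tfeb (63.2%) at -0.29 and Map1lc3a (63.1%) at 1.13. Among AT-rich members, Becn1 (45.04% GC, -0.02), Atg3 (44.8%, -0.02) and Ulk2 (47.0%, -0.10) hardly departed and Nbr1 (47.7%, -1.41) was low. The part of base composition and length in the D30 values was not tested beyond the correction given above.

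**Figure D4:**
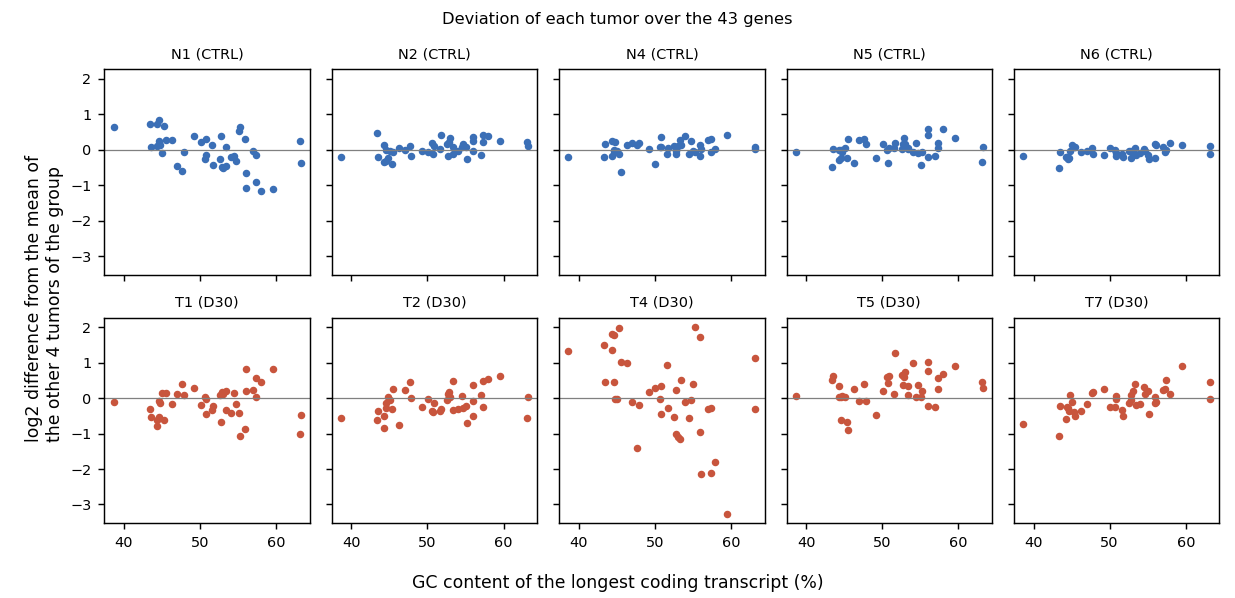
Difference of each tumor from the mean of the other 4 tumors of its group on the log2 scale (vertical axis) against the GC content of the longest coding transcript (horizontal axis, %), 1 point per gene for 43 genes, CTRL tumors in the upper row and D30 tumors in the lower. T4 has the widest spread (-3.26 to 2.01) and, with N1, a downward slope.

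Motif content and change were set side by side. The 7 genes with TCACGTGA had a median log2 fold change of 0.16, from -0.21 (Mcoln1) to 0.52 (Ctsd), and 5 of 7 were higher in D30. The 29 genes with a window that lacked it had a median of -0.09, with 12 higher. Without T4 the medians were 0.07 on both sides, with 5 of 7 and 16 of 29 higher, so that the difference between the medians rested on T4. None was called on either side, with or without T4. For CACGTG, the medians were -0.02 with the motif (7 of 14 higher) and -0.03 without (10 of 22 higher), and without T4 they were 0.04 (8 of 14 higher) and 0.08 (13 of 22 higher).

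Around the 43 genes, 163 further genes of the pathway were listed in 6 groups, of which 162 passed the filter. Of these, 3 were called, with Lamtor2 higher and Sesn3 and Ppargc1a lower in D30, 3 of 162 where 2.76% of all genes were called. Their median log2 fold change was -0.02, with 78 higher and 84 lower. Without T4, 12 of them were called, 5 higher and 7 lower, where 6.43% of all genes were called.

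The 30 genes of mTORC1 nutrient sensing held both a rise and a fall (17 higher and 13 lower, median log2 fold change 0.20). Sesn3 (chr9:14275067-14333101), the gene of Sestrin 3, which restrains mTORC1 and is a known target of FOXO factors, fell. It had 1838, 2167, 1291, 2311 and 1871 normalized counts in the CTRL tumors and 678, 899, 534, 596 and 608 in the D30 tumors. Every D30 tumor was below every CTRL tumor, with a wide gap between the lowest CTRL tumor (N4) and the highest D30 tumor (T2). Sesn3 averaged 1896 ± 392 normalized counts in the CTRL group and 663 ± 141 in the D30 group (SD, n = 5 each). For Sesn3, the log2 fold change was -1.51 ± 0.21 (SE, limma, adjusted p = 0.00282). The call held in all 21 alternatives, with -1.44 ± 0.20 (SE, limma, adjusted p = 0.00116) without T4.
Lamtor2 (chr3:88549819-88553074), which encodes a subunit of the Ragulator that anchors mTORC1 at the lysosome, rose. It had 1785, 1501, 1860.2, 1308 and 1856 normalized counts in the CTRL tumors and 2547, 2611, 3159.9, 2256 and 3905 in the D30 tumors. The groups did not overlap, and T7 was the highest tumor. Lamtor2 averaged 1662 ± 247 normalized counts in the CTRL group and 2896 ± 652 in the D30 group (SD, n = 5 each). For Lamtor2, the log2 fold change was 0.79 ± 0.19 (SE, limma, adjusted p = 0.0497). This p was near the threshold, and the call was lost in 11 of 21 alternatives, among them the fits without N1, N2, N4, N5, N6, T1, T2 or T7 (adjusted p from 0.0652 to 0.152, limma).
The call of Ppargc1a (chr5:51454250-51567726), the gene of the mitochondrial coactivator PGC-1alpha, one of 9 other transcriptional regulators of autophagy listed (3 higher, 6 lower), was likewise near the threshold. It had 213, 335, 159.9, 366 and 196 normalized counts in the CTRL tumors and 94.6, 116, 46.3, 145 and 47.9 in the D30 tumors. No D30 tumor reached the lowest CTRL tumor, N4, although T5 came close. Ppargc1a averaged 254 ± 90.7 normalized counts in the CTRL group and 90.0 ± 43.1 in the D30 group (SD, n = 5 each). For Ppargc1a, the log2 fold change was -1.56 ± 0.38 (SE, limma, adjusted p = 0.0478), and the call was lost in 14 of 21 alternatives, among them the fits without N1, N2, N4, N5, N6, T1, T2 or T7 (adjusted p from 0.0575 to 0.151, limma).

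The other 4 groups held no call among all 10 tumors, and the gene with the smallest p is given for each. Among 37 further genes of the autophagy machinery (19 higher and 18 lower) this was Bnip3, a mitophagy receptor known to be induced by hypoxia. It had 1907, 1160.2, 2846, 914 and 1118 normalized counts in the CTRL tumors and 2474, 2753, 21444, 16348 and 3828 in the D30 tumors. T4 and T5 were far higher than every other tumor, and T1 and T2 lay below N4. For Bnip3, the log2 fold change was 2.09 ± 0.59 (SE, limma, adjusted p = 0.0791), and 1.65 ± 0.49 (SE, limma, adjusted p = 0.0643) without T4. It was called by edgeR with TMM (adjusted p = 0.0486) and by DESeq2 (adjusted p = 0.000396) on the recovered reads.
Of 39 other hydrolases and activators, 14 were higher and 25 lower. Acp5, the tartrate-resistant acid phosphatase of macrophages and osteoclasts, had 1727, 1167, 1106, 764 and 1061 normalized counts in the CTRL tumors and 3079, 2109.9, 2466, 1473 and 2301 in the D30 tumors. T5 lay below N1, and the other D30 tumors were above all CTRL tumors. For Acp5, the log2 fold change was 0.98 ± 0.25 (SE, limma, adjusted p = 0.0526), and the call was made without N1, T4 or T5 (adjusted p = 0.032, 0.0364 and 0.0224, limma). Without T4, 6 of the 39 were called, of which 3 were higher and 3 lower, where 6.43% of all genes were called.
Among 26 other lysosomal membrane genes tested, 8 were higher and 18 lower. Npc1, the exporter of cholesterol from the lysosome, had 1684, 2785, 2348, 2906 and 2484 normalized counts in the CTRL tumors and 1846, 1356, 877, 2071 and 1305 in the D30 tumors. N1 lay within the D30 range, and the other CTRL tumors were above every D30 tumor. For Npc1, the log2 fold change was -0.75 ± 0.25 (SE, limma, adjusted p = 0.134), and -0.57 ± 0.20 (SE, limma, adjusted p = 0.103) without T4. Genes on the other strand overlap Npc1.
Of 21 other V-ATPase subunits, 17 were higher and 4 lower in D30 (median log2 fold change 0.15, or 0.24 with 15 higher without T4), and 9 of 21 were higher with library-size scaling. Atp6v1f, a subunit of the catalytic domain, had 3819.9, 3043, 3458, 2705 and 3152 normalized counts in the CTRL tumors and 3733, 4439.8, 7276, 4756 and 5189 in the D30 tumors. T4 was the highest tumor, T1 lay below N1, and the other D30 tumors were above all CTRL tumors. For Atp6v1f, the log2 fold change was 0.62 ± 0.20 (SE, limma, adjusted p = 0.121), and 0.48 ± 0.15 (SE, limma, adjusted p = 0.0759) without T4. These lists were counted beside all tested genes and no list test was made.

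**Figure D5:**
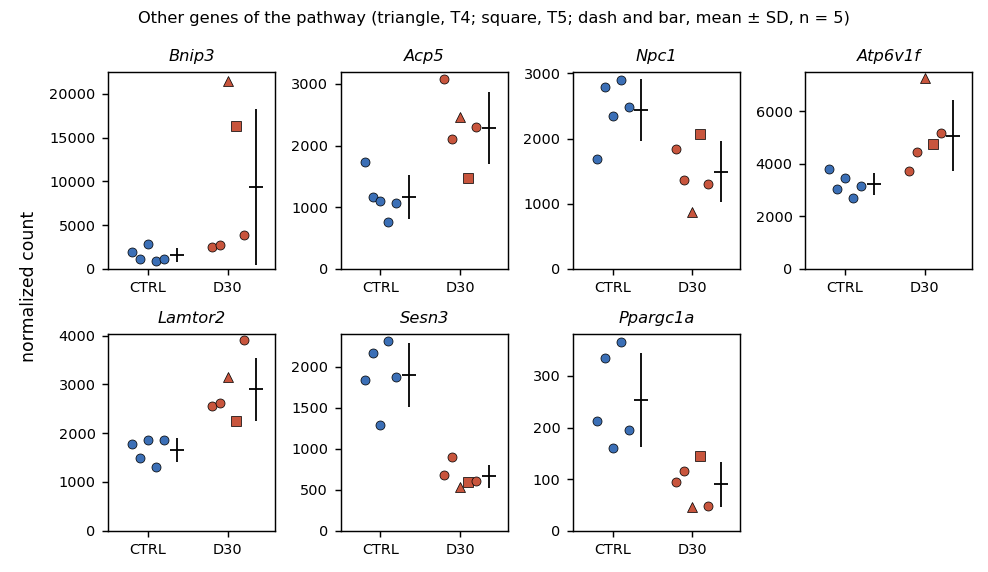
Normalized count (vertical axis, from 0) of 7 further genes of the pathway in each CTRL (blue) and D30 (red) tumor, with the mean and SD of each group beside the points (n = 5). T4 is a triangle and T5 a square. Lamtor2, Sesn3 and Ppargc1a show no overlap between the groups, and the highest Bnip3 values are those of T4 and T5.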

How the data were processed

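The 10 tumors, 5 per group, were sequenced as strand-specific read pairs. Per the submitters' processing notes, the authors used CASAVA, FastQC, Trim Galore, STAR (2.7.0e), GRCm39 and DESeq2, whereas the methods of the study name hg38. The study also lists RSEM among its software, and the annotation and the counting settings are not given in the sources used here. The authors deposited a normalized signal per gene, whose reads had been divided by 1 size factor per tumor. Whole reads were recovered for 100% of values (tolerance 0.01), with 29192261 to 42122304 reads per tumor, so that counting error is largest for low genes such as Mitf. Names and gene positions came from GENCODE M21 (GRCm38), which matched 94.1% of identifiers, and promoters from RefSeq (GRCm38.p6).

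N columns were assigned to CTRL by their letter, and T columns to D30 as the only other group. The series describes the tumors of a group as independent biological replicates. The filter kept genes whose mean was 1 normalized count or more, and these were compared on log2(value + 1) with limma (3.58.1, R 4.3.3), its moderated test with a mean-variance trend and Benjamini-Hochberg adjustment. The added 1 shrinks the fold changes of genes with few reads. As alternatives on the recovered reads, edgeR (4.0.16) called 678 genes and DESeq2 (1.42.0) called 1858, compared with 678 for limma. The fit was tested on simulated data. For single genes an exact permutation test, two-sided, was added (lowest p possible 0.00794). Other alternatives were 2 pseudocounts, 2 filters, 2 scalings, each tumor left out, T4 and T5 left out together, and a GC and length correction added after seeing the data.

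The members and lists were chosen with earlier results of these data known. Values in every tumor are given for members with an unadjusted p under 0.05, the MiT/TFE factors, the member with the largest absolute log2 fold change in each role, and the called (or else lowest-p) genes of each pathway list. The values of some genes that meet a criterion are not reported here.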

Additional observations from a re-analysis of the deposited data

Results flagged for a closer look

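Of 44 groups of 5 tumors examined over the 22 named genes, 7 held a tumor far from the other 4 by Dixon's criterion. Chance gives about 1 in 20 for independent groups. These genes share the same tumors, and some were named for a large fold change or a low p. The count therefore cannot be measured against that rate. T4 accounted for 4 of the 7. It was low in Tfe3, with 449.9 normalized counts compared with 1893 to 1989 in the other D30 tumors, and in Ulk1, with 737 compared with 2118 to 2917. T4 was high in Gabarapl2, with 8437 compared with 1938 to 2394, and in Ctsd, with 44508 compared with 10428 to 15875. Sqstm1 was far from the rest in 1 tumor of each group. It had 22847 normalized counts in T5 compared with 10504 to 12580 in the other D30 tumors, and 11563 in N4 compared with 8237 to 9048 in the other CTRL tumors. Tfeb had 623 in N1 compared with 795 to 818 in the other CTRL tumors. T4 and N1 were the tumors whose differences from their group fell with GC content, and the part of base composition in these values was not tested.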

How the results depend on the processing

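Over 21 alternatives, the number of called genes in all was 678 and became 1858 with DESeq2, 1074 with the GC and length correction and 2418 without T4 and T5, and it ran from 279 to 1573 when 1 tumor was left out (279 without N2, 332 without N6, 340 without N5, 433 without T7 and 1573 without T4). The number of called members was 0 and became 2 without T4 and T5. It ran from 0 to 1 when 1 tumor was left out, with 1 (Wipi1) without T5. The median of the members, 0.11, became -0.11 with library-size scaling, where the median of all genes was -0.27. It ran from 0.01 to 0.15 with 1 tumor left out. The called genes of the pathway lists, 3, became 13 with DESeq2, 5 with the GC and length correction, edgeR with TMM or a mean of at least 10, 1 without a filter and 17 without T4 and T5. That count ran from 1 to 12 with 1 tumor left out, being 1 without N2, N4, N5, N6, T1, T2 or T7, 12 without T4 and 5 without T5. Over 462 values of named genes, 416 kept their direction and side of the threshold, 25 lost a call, 15 gained one and 6 turned. The direction turned for Tfe3 without T4 and T5 (0.25) and with 1 tumor left out (-0.34 to 0.26, above 0 without T4). It turned for Mitf with the GC and length correction (0.069) and with 1 tumor left out (-0.47 to 0.045, above 0 without T7), and for Atp6v1h with library-size scaling (-0.040) and without T4 and T5 (-0.11). The cause was not tested. No paired analysis was possible because the numbers in the column names are not the replicate numbers of the labels. The design gave no pairs either. The study describes mice randomized to their treatment once tumors were seen, and it names no pairing of CTRL with D30 mice. Matching numbers would therefore not by themselves have made pairs.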

Other observations

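Some further genes of the pathway, outside the set of 43, passed the threshold once T4 was left out. They are listed here because of that result, after their values were seen. Lower in D30 were Ctsc, a protease that activates granule enzymes of leukocytes (log2 fold change -1.21 ± 0.27 (SE, limma, adjusted p = 0.021)), Acp2, an acid phosphatase (-0.58 ± 0.14 (SE, limma, adjusted p = 0.0304)), Tmem106b, a lysosomal membrane protein (-0.83 ± 0.15 (SE, limma, adjusted p = 0.0067)), and Slc17a5, the exporter of sialic acid (-0.67 ± 0.17 (SE, limma, adjusted p = 0.036)). Higher were Fuca1, which removes fucose from glycoconjugates (0.55 ± 0.15 (SE, limma, adjusted p = 0.0431)), and Fnip2, a partner of folliculin in nutrient sensing (0.78 ± 0.21 (SE, limma, adjusted p = 0.0449)). With all 10 tumors the log2 fold changes were -0.90 for Ctsc, -0.64 for Acp2, -0.63 for Tmem106b, -0.45 for Slc17a5, 0.69 for Fuca1 and 0.72 for Fnip2, so that each of these had the same direction. Some were also called with all 10 tumors under other settings. DESeq2 called Acp2 (adjusted p = 0.00436), Fuca1 (0.0193) and Fnip2 (0.0341). With library-size scaling, limma called Acp2 (adjusted p = 0.0321) and Tmem106b (0.0382). In the fit without T4, 4 of 10 macrophage markers were called, all lower in D30, where 6.43% of all genes were called. Among these markers were Lyz2 and C1qb, which were highest in T4. The part of macrophages in the values of the genes listed here was not tested.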
